A study of Mus musculus with 8 samples.

Results

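Besides the cytochromes P450, 10 enzyme families take part in the oxidation, reduction, hydrolysis and conjugation of drugs, steroids and aldehydes in the mouse kidney, and their transcripts were compared between cisplatin-treated and control kidneys. Members were the protein-coding genes of the count table that had exactly 8 values, 1 for each library, and a symbol that begins with Ugt, Sult, Aldh, Akr, Hsd or Dhrs, or with Adh, Fmo, Ces or Cbr and a number. The rule found 81 of the 12286 protein-coding genes with 8 values. They comprised 15 Sult, 14 Ugt, 13 Aldh, 9 Akr, 9 Hsd, 6 Fmo, 5 Ces, 5 Dhrs, 3 Cbr and 2 Adh genes. Another 68 protein-coding genes of these families, such as Adh5, Aldh1a1, Cbr1 and Ces1d, had 10 values in place of 8 and were not used.

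All mice carried the WT genotype according to the labels, and the study's methods describe male C57/BL6J animals. Control mice received saline and the others cisplatin at 23 mg/kg, both by intraperitoneal injection, and kidney RNA was sequenced 72 h later. Cisplatin is a platinum drug for solid tumours that damages the proximal tubule, the segment that takes it up. Each group held 4 libraries, numbered 1, 2, 3 and 5 for control and 1, 3, 4 and 6 for cisplatin. The study describes 4 mice in each group for sequencing, which equals the number of libraries, but the labels do not tie a library to a mouse, and no source used here gives the age of the mice. The p-values measure the spread between these libraries.

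UDP-glucuronosyltransferases (Ugt) and sulfotransferases (Sult) attach a sugar acid or a sulfate to a hydroxyl group, which makes the product soluble enough for secretion. Flavin-containing monooxygenases (Fmo) oxygenate nitrogen and sulfur atoms, carboxylesterases (Ces) split esters and amides, and alcohol and aldehyde dehydrogenases (Adh, Aldh) oxidise alcohols and aldehydes. Aldo-keto reductases (Akr), carbonyl reductases (Cbr) and short-chain dehydrogenases (Dhrs, Hsd) reduce or oxidise carbonyl groups of steroids, retinoids and lipid-derived aldehydes. In the kidney many of these enzymes belong to the proximal tubule, next to the transporters for organic anions.

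Sequences upstream of 5 members are shown because 3 of them belong to a group of neighbouring genes that fell together, 1 to the same gene cluster, and 1 was nearly absent before cisplatin. Each is the 250 bases before the RefSeq start site, 5′ to 3′ on the gene's strand, in GRCm38.p6. The regions are chr5:87140341-87140590 for Ugt2b5, chr5:87254789-87255038 for Ugt2b37, chr5:87424204-87424453 for Ugt2b38 and chr5:87337196-87337445 for Ugt2a3, all on the minus strand, and chr2:69380212-69380461 on the plus strand for Dhrs9. Capitals in the first 3 mark the longest run that they share, in Ugt2a3 both copies of the HNF1 half-site GTTAAT, and in Dhrs9 the AP-1 motif TGANTCA.
Ugt2b5: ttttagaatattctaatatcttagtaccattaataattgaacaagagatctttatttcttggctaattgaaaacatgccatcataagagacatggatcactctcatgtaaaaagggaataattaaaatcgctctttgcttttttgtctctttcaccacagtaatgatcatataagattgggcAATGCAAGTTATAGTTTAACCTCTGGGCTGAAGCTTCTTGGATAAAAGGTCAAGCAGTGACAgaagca
Ugt2b37: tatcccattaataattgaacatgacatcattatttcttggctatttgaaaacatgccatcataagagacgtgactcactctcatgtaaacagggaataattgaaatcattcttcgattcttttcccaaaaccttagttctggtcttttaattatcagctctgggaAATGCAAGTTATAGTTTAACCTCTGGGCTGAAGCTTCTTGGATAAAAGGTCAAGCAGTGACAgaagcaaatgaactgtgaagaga
Ugt2b38: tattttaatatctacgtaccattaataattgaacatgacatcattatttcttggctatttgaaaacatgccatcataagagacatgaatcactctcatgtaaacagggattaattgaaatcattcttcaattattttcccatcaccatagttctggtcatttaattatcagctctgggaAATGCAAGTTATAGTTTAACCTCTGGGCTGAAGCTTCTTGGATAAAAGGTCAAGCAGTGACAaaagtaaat
Ugt2a3: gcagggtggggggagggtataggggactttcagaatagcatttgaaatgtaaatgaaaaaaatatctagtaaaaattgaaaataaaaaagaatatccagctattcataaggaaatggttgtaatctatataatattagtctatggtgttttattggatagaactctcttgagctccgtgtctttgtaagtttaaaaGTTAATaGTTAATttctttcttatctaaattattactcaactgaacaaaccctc
Dhrs9: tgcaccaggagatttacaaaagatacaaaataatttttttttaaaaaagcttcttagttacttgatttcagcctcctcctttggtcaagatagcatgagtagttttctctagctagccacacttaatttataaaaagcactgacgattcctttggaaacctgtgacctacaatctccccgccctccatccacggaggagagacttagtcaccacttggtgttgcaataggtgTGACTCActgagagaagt

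The shared run is 62 bases long, and counted from the start site its last base is at -7 in Ugt2b5, -24 in Ugt2b37 and -10 in Ugt2b38. It occurred in 3 of 32851 RefSeq promoter windows, those of these 3 genes. Over the 250 bases Ugt2b37 and Ugt2b38 were 85.2% identical, Ugt2b5 and Ugt2b38 81.5%, and Ugt2b5 and Ugt2b37 73.0%. Ugt2a3, from the same cluster, was 51.5% identical to Ugt2b5, 48.3% to Ugt2b38 and 47.2% to Ugt2b37. Ugt2b34, also of this cluster and also called lower, lacks the run, and its sequence is not printed. It was 54.0% identical to Ugt2b37, 52.1% to Ugt2b38 and 51.3% to Ugt2b5. Whether the run has a part in the fall was not tested.

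RefSeq windows were found for 65 of the 81 members and for 45 of the 58 members tested. Both strands of each were searched for the HNF1 half-site GTTAAT, which 6.43% of all windows hold, the HNF4 motif CAAAGTCCA (0.384%), the antioxidant response element core TGACNNNGC (10.2%) and the AP-1 motif TGANTCA (6.75%). Among 24 members called lower the HNF1 half-site was found in 3 (Akr1c21, Ugt1a6a and Ugt2a3), the AP-1 motif in 3 (Ugt1a6a, Ugt2b37 and Ugt2b38) and the antioxidant response element core in 1 (Aldh9a1). Among 11 members called higher each of these 3 motifs was found in 1, in Sult1a1, Dhrs9 and Aldh1a2 in that order. Among 10 members not called the HNF1 half-site was found in 2 (Sult1d1 and Ugt1a10) and the other motifs in 0. The HNF4 motif was in none of the 45 windows. A match is a string of letters and not a binding site.

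Values are CPM, in which each count is scaled by the size of its library, with library sizes adjusted by TMM normalization. A gene was called when edgeR's quasi-likelihood test gave a Benjamini-Hochberg adjusted p under 0.05 over all 9141 genes that passed the expression filter and the log2 fold change reached 1 in either direction. Totals over the genes used were 10953338 to 16701599 counts per library, and before TMM adjustment 3 counts corresponded to 0.180 to 0.274 CPM. TMM then multiplied library sizes by 0.785 to 0.853 in controls and by 1.15 to 1.32 in cisplatin libraries. Control 5, cisplatin 4 and cisplatin 6 stood apart from the other 5 libraries on the second principal component (16.0% of the variance), and the 2 groups of libraries are called library sets below. Cisplatin 1 and 3 had at most 3 counts of either of the Y-linked genes Kdm5d and Eif2s3y, against at least 274 in each other library, although the study describes male mice. Results were therefore also computed without these 2 libraries and within the first set, which holds control 1, 2 and 3 and cisplatin 1 and 3.

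Of the 58 members tested, 29 were lower and 12 higher after cisplatin, and 17 were not called. Over all genes tested, 15.7% were called lower and 19.2% higher, so the share called lower was 50% among members and the share called higher, 20.7%, lay near that of all genes. Scaled by total library size alone, 8.78% of all genes were lower and 34.7% higher, and 44.8% and 25.9% of the members. The median log2 fold change was -1.07 over the members and 0.08 over all genes. In 32 members every cisplatin-treated kidney lay below every control, which held for 22.5% of all genes, and in 11 every one lay above, against 23.7% of all genes. The other 15 overlapped.

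Abundant and scarce members gave different counts. Of 25 members with a mean of at least 100 CPM over the 8 libraries, 21 were called lower and 0 higher, where 26.6% and 12.0% of all genes at that level were called lower and higher. Aldh2, Sult1d1, Hsd11b2 and Akr1b3 were the abundant members that were not called. Below 100 CPM, 8 of 33 members were lower and 12 higher, against 13.1% and 20.9% of all genes at that level. This mean covers both groups, so the split depends on the change itself, and a gene can reach 100 CPM through 1 group alone. Hsd3b2 did so, with 438 CPM in controls and 4.17 CPM after cisplatin. Akr1b8, at 177 CPM after cisplatin, counted as below 100 CPM with a mean of 90.5.

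**Figure D1:**
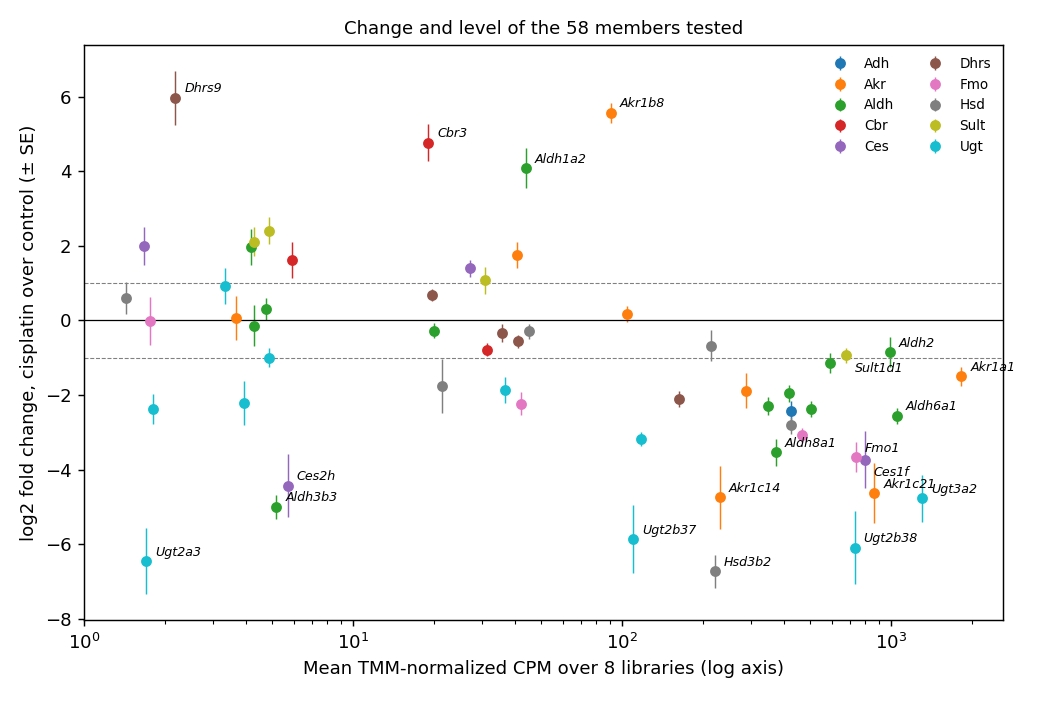
Log2 fold change (cisplatin over control, bars ± SE) against mean TMM-normalized CPM over 8 libraries (log axis) for the 58 members tested, coloured by family, with dashed lines at 1 and -1. All points to the right of 100 CPM lie below 0 except that of Akr1b3, whose log2 fold change was 0.17.

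Summed over all 81 members, transcripts took 22567 to 26589.7 CPM of the control libraries and 4052 to 6460.5 CPM of the cisplatin libraries, and the mean after cisplatin was 22.0% of the control mean. Between families the share of the control total that was left ranged from 3.72% for Ugt through 9.79% for Fmo, 10.2% for Ces, 18.6% for Adh, 21.4% for Hsd, 28.1% for Akr and 29.9% for Aldh to 42.0% for Dhrs and 57.3% for Sult. With TMM-adjusted library sizes every cisplatin-treated kidney lay below every control in these 9 families. Scaled by total library size alone, the Sult total of cisplatin 1 lay above every control. The Cbr total was 155% of control and its groups overlapped. These totals cover only the genes with 8 values and not the whole families. They hold 14 of 22 protein-coding Ugt genes, 15 of 21 Sult, 13 of 21 Aldh, 9 of 17 Akr and 9 of 22 Hsd. For Fmo they hold 6 of 7, for Ces 5 of 19, for Dhrs 5 of 10, for Cbr 3 of 4 and for Adh 2 of 6. A family total follows its abundant members: Ces1f made up 98.2% of the Ces total in controls, Adh1 99.96% of the Adh total and Sult1d1 97.5% of the Sult total. In bulk tissue, fewer cells of a type and less RNA per cell cannot be told apart.

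**Figure D2:**
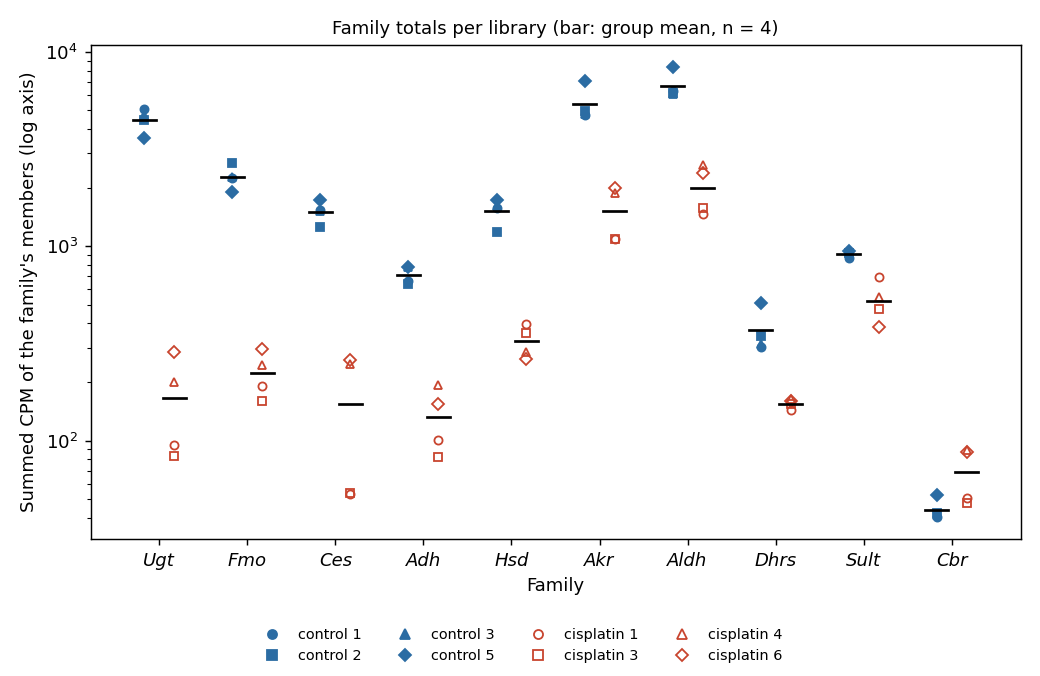
Summed TMM-normalized CPM of each family's members in the 4 control (filled) and 4 cisplatin (open) libraries on a log axis, with bars at the group means, families ordered by the ratio of the means. The Ugt totals fell from between 3596 and 5056 to between 83.6 and 285, whereas the Cbr totals overlapped.

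The Ugt members kept the smallest share of their control total. Of the 10 Ugt members tested, 9 were lower and 0 higher, against 15.7% and 19.2% of all genes, and Ugt1a10 was not called. Ugt3a2 (chr15:9335550-9370955, plus strand), a UDP-glycosyltransferase of the small Ugt3 family, was the most abundant of the Ugt members in control kidneys per kb of transcript, at 811 CPM per kb. It stood at 2582, 2729, 2139 and 2610.2 CPM in control 1, 2, 3 and 5 and at 34.6, 25.1, 126 and 183 CPM in cisplatin 1, 3, 4 and 6. All cisplatin-treated kidneys lay far below the controls, and cisplatin 4 and 6 kept more transcript than 1 and 3 (log2 fold change -4.77, SE 0.64, adjusted p = 0.000256 in edgeR's test). Without cisplatin 1 and 3 the log2 fold change of Ugt3a2 was -4.03.

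The Ugt2 genes lie side by side on chromosome 5. Ugt2b38 (chr5:87409942-87424203, minus strand) and Ugt2b37 (chr5:87240493-87254804, minus strand) encode enzymes of the steroid- and drug-conjugating subfamily, and their upstream sequences are printed above. Ugt2b38 had 1899, 1289.8, 1962 and 602 CPM in the controls, in the order given above, and 4.0, 3.3, 23 and 54.5 CPM after cisplatin. Ugt2b37 had 268, 151, 309.6 and 133 CPM and 0.546, 0.605, 3.66 and 10.5 CPM. In both genes control 5 was the lowest control and cisplatin 6 the highest cisplatin library, but the groups did not overlap. The log2 fold change was -6.09 (SE 0.98, adjusted p = 0.000730, edgeR) for Ugt2b38 and -5.86 (SE 0.91, adjusted p = 0.000594, edgeR) for Ugt2b37. It moved to -7.17 and -7.15 without cisplatin 6 and to -5.22 and -4.93 without cisplatin 1 and 3.

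Ugt2b5, named for its upstream sequence with its values known, was expressed at 5.67, 5.42, 8.27 and 6.29 CPM in the controls and 0.728, 0.825, 0.439 and 3.65 CPM after cisplatin. Cisplatin 6 was again the highest of its group (log2 fold change -2.22, SE 0.59, adjusted p = 0.0117, edgeR), and the value was -3.23 without that library. Without cisplatin 1 and 3 Ugt2b5 was not called (-1.66, adjusted p = 0.0639, edgeR). Ugt2b34 fell from 57.7 ± 11.8 to 15.8 ± 7.83 CPM (SD, n = 4 each; log2 fold change -1.86, SE 0.35, adjusted p = 0.00184, edgeR). Here cisplatin 4 and 6, at 11.1 and 7.61 CPM, were below cisplatin 1 and 3, at 19.6 and 24.8 CPM, and the log2 fold change without the latter was -2.61.

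Ugt2a3 had 15, 32, 25 and 98 counts in control 1, 2, 3 and 5 and 1, 0, 1 and 0 in cisplatin 1, 3, 4 and 6. The summed counts of 170 and 2 give a ratio of control over cisplatin, per TMM-adjusted library size, of 114 (adjusted p = 0.000307, edgeR). The exact 95% interval of the ratio was 31.0 to 945, counting error only. Control 5 held most of the control counts, and without it the fitted log2 fold change was -5.66 instead of -6.45.

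Members outside this cluster were lower as well. Ugt8a, which makes galactosylceramide, fell evenly from 182 to 227 to 18.4 to 28.1 CPM over the 4 libraries of each group (log2 fold change -3.18, SE 0.18, adjusted p = 2.54e-06, edgeR). Ugt1a6b was at 2.3 to 4.17 CPM in controls and 0.317 to 0.91 CPM after cisplatin, and Ugt1a6a at 5.58 to 7.1 and 2.7 to 4.34 CPM. Both were called lower, but the genes of this locus share their last exons, so that reads can be split among them, and Ugt1a6a, with a log2 fold change of -1.0, lost its call under several alternatives, among them upper-quartile normalization (-0.94).

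Sulfotransferases gave another count. Of the 15 Sult members 4 passed the filter, 3 of them were called higher and 0 lower, against 19.2% and 15.7% of all genes. Sult1d1 (chr5:87554645-87569027, minus strand), which sulfates catecholamines, lies at the end of the Ugt2 cluster and had 849.8, 894, 904 and 923 CPM in the controls and 615, 408, 501 and 336 CPM after cisplatin. The groups did not overlap after TMM adjustment, yet the log2 fold change of -0.94 (SE 0.20, adjusted p = 0.00396, edgeR) fell short of 1 in size. It was -1.08, and called, without cisplatin 1 and 3. Scaled by total library size alone, Sult1d1 was higher in cisplatin 1 than in every control.

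The 3 sulfotransferases called higher were of low abundance. Sult5a1, whose substrates are poorly known, rose from 0.834 to 2.63 to 6.9 to 9.44 CPM (log2 fold change 2.41, SE 0.36, adjusted p = 0.000490, edgeR). Sult2b1, which sulfates cholesterol, rose from 0.62 to 2.44 to 5.46 to 8.96 CPM (log2 fold change 2.12, SE 0.40, adjusted p = 0.00180, edgeR), and Lmtk3 overlaps its exons on the opposite strand. Neither gene had overlapping groups. Sult1a1, the phenol sulfotransferase, whose exons overlap Sgf29 on the opposite strand, had 20.3, 27.7, 11.3 and 19.7 CPM in controls and 65.1, 50.2, 26.2 and 25.5 CPM after cisplatin, so that cisplatin 4 and 6 overlapped the controls. Its call (log2 fold change 1.08, SE 0.36, adjusted p = 0.0316, edgeR) was lost without any of control 1, 3 or 5 or cisplatin 1 or 3, and the value was 0.39 without cisplatin 1 and 3 together.

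**Figure D3:**
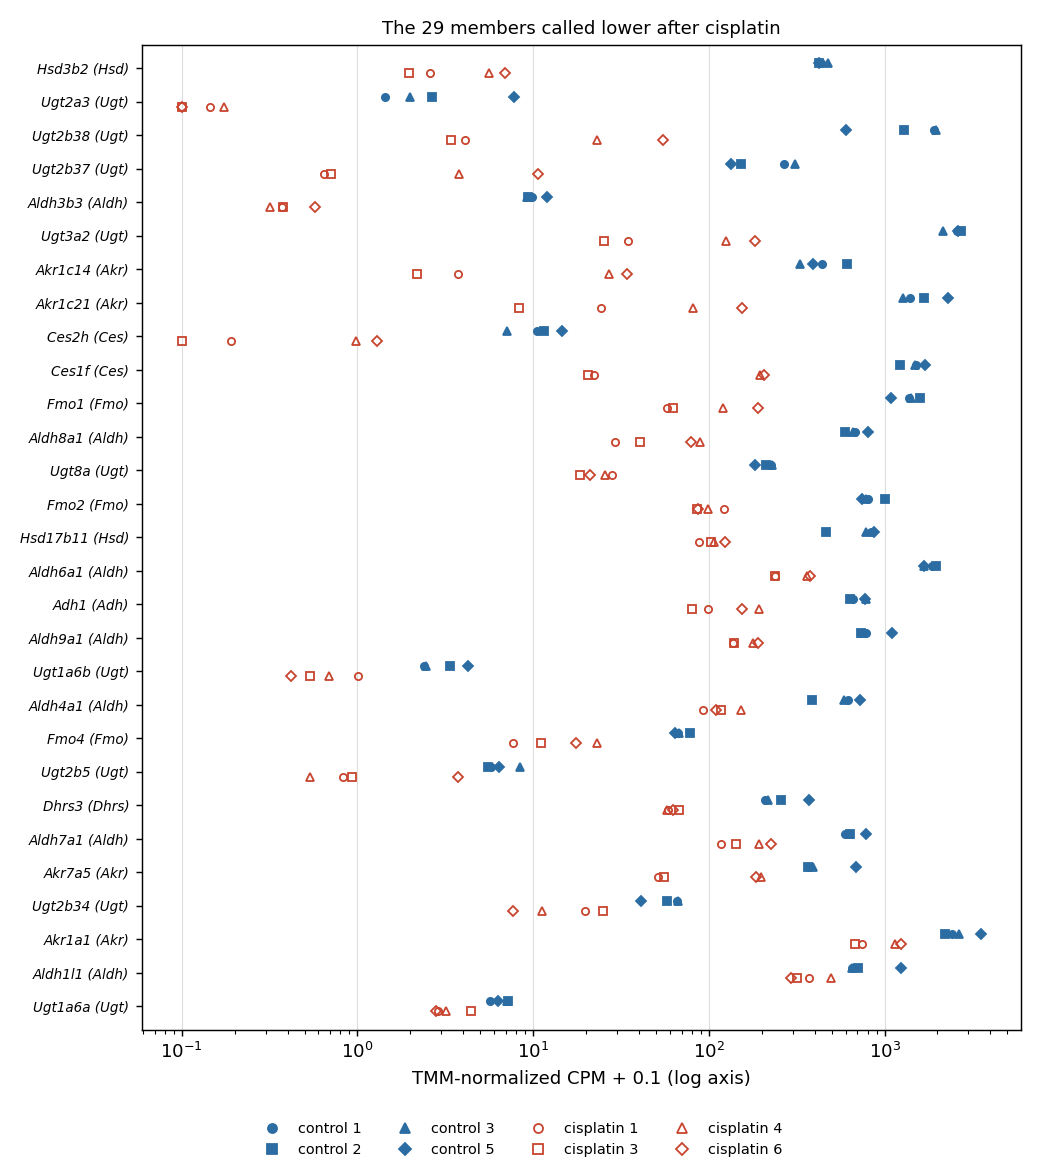
TMM-normalized CPM + 0.1 (log axis) of the 29 members called lower in each control (filled) and cisplatin (open) library, ordered by log2 fold change. In all of them every open symbol lies to the left of every filled one.

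The Fmo genes lie side by side on chromosome 1. Of the 4 Fmo members tested, 3 were lower and 0 higher, against 15.7% and 19.2% of all genes. Fmo1 (chr1:162829561-162866610, minus strand), which oxygenates many amine drugs, had 1381, 1589, 1405 and 1085 CPM in control 1, 2, 3 and 5 and 57.4, 62.7, 120.4 and 189 CPM in cisplatin 1, 3, 4 and 6. The groups were far apart, and cisplatin 4 and 6 were above 1 and 3 (log2 fold change -3.67, SE 0.40, adjusted p = 8.07e-05, edgeR). Fmo2 (chr1:162874317-162898726, minus strand) had 802, 1004, 782 and 742 CPM and 122, 85.1, 99 and 86.4 CPM, with little spread within either group (log2 fold change -3.08, SE 0.19, adjusted p = 3.36e-06, edgeR). Fmo4 fell from 69.2 ± 6.11 to 14.8 ± 6.84 CPM (SD, n = 4 each; log2 fold change -2.24, SE 0.31, adjusted p = 0.000335, edgeR).

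Of the carboxylesterase members, the abundant gene fell and 2 scarce ones rose. Ces1f (chr8:93256236-93279747, minus strand) had 1511, 1231, 1486 and 1690.2 CPM in controls and 22.1, 20.3, 195 and 207 CPM after cisplatin. Cisplatin 4 and 6 stood well above cisplatin 1 and 3 and far below every control (log2 fold change -3.74, SE 0.77, adjusted p = 0.00304, edgeR), and the log2 fold change was -2.87 without the latter 2 libraries. On chromosome 8, within 287 kb, Ces2h was lower and its neighbours Ces2f and Ces2g were higher. Ces2h had 10.4, 11.5, 6.98 and 14.5 CPM in controls and 0.091, 0, 0.878 and 1.19 CPM after cisplatin (log2 fold change -4.43, SE 0.83, adjusted p = 0.00187, edgeR), with -5.21 in place of -4.43 without cisplatin 6 and -3.37 without cisplatin 1 and 3.

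Ces2g, by contrast, had 16.4, 11.1, 17.2 and 15 CPM in controls and 30.2, 30.9, 48.1 and 48.1 CPM after cisplatin, all above the controls (log2 fold change 1.40, SE 0.23, adjusted p = 0.000867, edgeR). Ces2f rose from 0.443 to 0.91 to 1.05 to 5.05 CPM (log2 fold change 1.99, SE 0.51, adjusted p = 0.00919, edgeR). In the first library set alone neither was called, at 0.98 for Ces2g and 1.35 (adjusted p = 0.0532, edgeR) for Ces2f.

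Alcohol oxidation rests in these data on Adh1 (chr3:138260991-138290698, plus strand), which oxidises ethanol and retinol. It had 664, 635, 779 and 776 CPM in controls and 98.2, 80.0, 193 and 155 CPM after cisplatin, without overlap (log2 fold change -2.44, SE 0.28, adjusted p = 0.000115, edgeR). Adh6a did not pass the filter and is named because of its values, with 0, 3, 3 and 7 counts in the controls and 50, 34, 7 and 4 in the cisplatin libraries. Only cisplatin 1 and 3 had more counts than every control.

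Among the 13 Aldh members, all of them tested, 7 were lower (53.8%) and 2 higher (15.4%), against 15.7% and 19.2% of all genes. Aldh6a1 (chr12:84430717-84451004, minus strand), the methylmalonate semialdehyde dehydrogenase of valine breakdown, was the most abundant of the Aldh members per kb in controls (310.2 CPM per kb). It had 1859.8, 1964, 1681 and 1673 CPM in controls and 238, 238, 362 and 378 CPM after cisplatin (log2 fold change -2.56, SE 0.22, adjusted p = 2.13e-05, edgeR). Bbof1 overlaps its exons on the opposite strand. Aldh8a1 (chr10:21377291-21396585, plus strand), of the kynurenine pathway of tryptophan, had 681, 598, 660.0 and 806 CPM in controls and 29.2, 40.6, 88.8 and 78.7 CPM after cisplatin (log2 fold change -3.53, SE 0.36, adjusted p = 5.31e-05, edgeR). Both genes were without overlap, and in both cisplatin 4 and 6 were above 1 and 3.

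Aldh9a1, Aldh4a1 and Aldh7a1 kept 19.2%, 20.4% and 25.7% of their control means. Aldh9a1, an aminoaldehyde dehydrogenase of carnitine synthesis, fell from 840.1 ± 175 to 162 ± 27.1 CPM (log2 fold change -2.38, SE 0.21, adjusted p = 2.29e-05, edgeR). Aldh4a1, of proline breakdown, fell from 579.6 ± 141 to 118 ± 24.9 CPM (log2 fold change -2.30, SE 0.24, adjusted p = 5.65e-05, edgeR). Aldh7a1, of lysine breakdown, fell from 659.5 ± 82.2 to 169.8 ± 48.4 CPM (log2 fold change -1.96, SE 0.23, adjusted p = 0.000114, edgeR; SD, n = 4 in each group). Exons of Phax overlap Aldh7a1 on the opposite strand, and those of Gm21969 overlap Aldh4a1 on the same strand.

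Aldh3b3, which oxidises lipid-derived aldehydes, had a much lower level, at 9.74, 9.25, 9.18 and 12 CPM in controls, and 0.273, 0.275, 0.22 and 0.476 CPM after cisplatin, close to the level of 3 counts (log2 fold change -5.0, SE 0.33, adjusted p = 4.06e-06, edgeR). Its neighbour on chromosome 19, Aldh3b1, was not called. Aldh1l1, the formyltetrahydrofolate dehydrogenase of folate metabolism, had 649, 701, 656 and 1239.9 CPM in controls and 372, 318, 499 and 294 CPM after cisplatin. The groups did not overlap after TMM adjustment, but control 5 was far above the other controls. Without control 5 the log2 fold change of -1.13 (SE 0.27, adjusted p = 0.00632, edgeR) was -0.87 and below the size required for a call. Scaled by total library size alone, the log2 fold change of Aldh1l1 was -0.56 (adjusted p = 0.0760, edgeR). Gm45901 overlaps exons of Aldh1l1 on the same strand.

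Aldh2 (chr5:121566027-121593824, minus strand), the mitochondrial enzyme that removes acetaldehyde, had 1037, 1032, 1049.9 and 1952 CPM in controls and 334, 417, 1075 and 975 CPM after cisplatin. Cisplatin 4 lay between the controls, and cisplatin 6 just below them, so the groups overlapped (log2 fold change -0.86, SE 0.40, adjusted p = 0.106, edgeR). Within the first library set the difference was called (-1.52, adjusted p = 7.85e-05, edgeR), and with the library set as a covariate it was -1.28, whereas without cisplatin 1 and 3 it was -0.29.

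The 2 Aldh members called higher oxidise retinal to retinoic acid. Aldh1a2 (chr9:71215789-71296243, plus strand) had 6.91, 8.06, 2.05 and 2.52 CPM in controls and 109, 102, 31.7 and 87.5 CPM after cisplatin. All cisplatin-treated kidneys were above all controls, the lowest being cisplatin 4 (log2 fold change 4.08, SE 0.54, adjusted p = 0.000247, edgeR), and the mean was 16.9 times that of controls. Aldh1a3 (chr7:66390890-66427517, minus strand) had 1.86, 2.63, 0.683 and 1.57 CPM and 5.05, 12.4, 5.27 and 3.73 CPM, again without overlap (log2 fold change 1.97, SE 0.49, adjusted p = 0.00843, edgeR), cisplatin 3 being the highest. Aldh1a1, another gene of this kind, was not analysed here.

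The short-chain retinoid enzymes moved in opposite directions. Dhrs3 (chr4:144892827-144928209, plus strand), which reduces retinal back to retinol, had 209, 257, 218 and 374 CPM in controls and 58.4, 67.9, 57.3 and 62 CPM after cisplatin (log2 fold change -2.11, SE 0.21, adjusted p = 4.25e-05, edgeR), without overlap and with similar values in all 4 cisplatin libraries. Dhrs9 (chr2:69380445-69404533, plus strand), which oxidises retinol and steroids, had 1, 0, 2 and 0 counts in control 1, 2, 3 and 5 and 112, 124, 29 and 40 in cisplatin 1, 3, 4 and 6. The summed counts of 3 and 305 correspond, per TMM-adjusted library size, to a ratio of 76.1 (adjusted p = 0.000143, edgeR). The exact 95% interval of the ratio was 25.8 to 371, counting error only. The fitted log2 fold change of Dhrs9, 5.98, was 6.90 without control 3 and 5.25 without cisplatin 1 and 3. Dhrs7, Dhrs7b and Dhrs11, at 13 to 60.5 CPM in controls, were not called.

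Other genes of retinoid handling gave no common direction. Of 11 tested, 3 were lower and 2 higher, against 15.7% and 19.2% of all genes. Lrat, which stores retinol as esters, was at 7.66 to 9.01 CPM in controls and 0 to 0.238 CPM after cisplatin, and Rdh16 and the receptor gene Rxra were lower with log2 fold changes of -1.64 and -1.25. Rdh12, a retinal reductase, rose from 0.455 to 1.12 to 7.1 to 17.7 CPM, and Crabp2, which carries retinoic acid to its receptors, from at most 0.239 to 1.36 to 7.47 CPM.

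**Figure D4:**
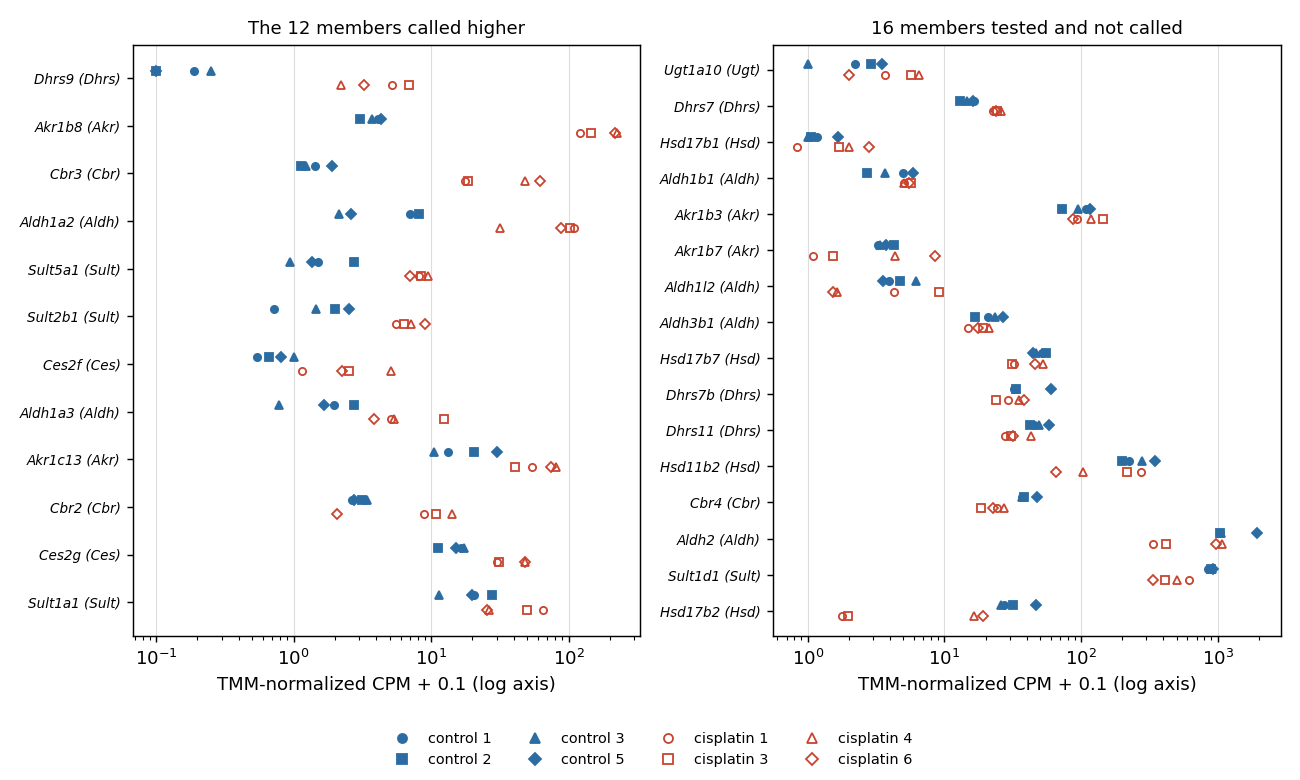
TMM-normalized CPM + 0.1 (log axis) of the 12 members called higher (left) and 16 tested members not called (right) in each control (filled) and cisplatin (open) library. Only Cbr2 and Sult1a1 overlap between the groups on the left, while on the right most do.

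Aldo-keto reductases divided by gene. Of the 8 tested, 4 were lower (50%) and 2 higher (25%), against 15.7% and 19.2% of all genes. Akr1a1 (chr4:116636510-116651680, minus strand), the general aldehyde reductase that also takes part in ascorbate synthesis, had 2416, 2193, 2642 and 3519 CPM in controls and 744, 683, 1141 and 1234 CPM after cisplatin (log2 fold change -1.50, SE 0.26, adjusted p = 0.00117, edgeR). It kept 35.3% of its control mean and was the most abundant of the tested members per kb of transcript after cisplatin, at 346 CPM per kb. Scaled by total library size alone, its log2 fold change was -0.95 and below the size required for a call. Akr1c21 (chr13:4574075-4586541, plus strand), a steroid dehydrogenase, was the most abundant per kb in controls, at 1105 CPM per kb against 979 for Akr1a1.

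Akr1c21 had 1393, 1683, 1279 and 2283 CPM in controls and 24.3, 8.25, 81 and 155 CPM after cisplatin (log2 fold change -4.63, SE 0.81, adjusted p = 0.00119, edgeR). Akr1c14 (chr13:4049011-4090688, plus strand), which reduces the 3-keto group of steroids, had 439, 612, 329.9 and 391 CPM and 3.64, 2.09, 26.8 and 33.9 CPM (log2 fold change -4.75, SE 0.84, adjusted p = 0.00130, edgeR). In both, cisplatin 6 was the highest and cisplatin 3 the lowest of the treated kidneys, and all were below the controls. Without cisplatin 6 the log2 fold changes were -5.45 and -5.37, and without cisplatin 1 and 3 they were -3.81 and -3.86. Gm18857 overlaps exons of Akr1c14 on the same strand.

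Akr1c13 (chr13:4191150-4205596, plus strand), which lies within 157 kb of Akr1c14, moved the other way. It had 13.2, 20.3, 10.4 and 30.0 CPM in controls and 54.3, 40.9, 81.2 and 74 CPM after cisplatin, without overlap (log2 fold change 1.76, SE 0.35, adjusted p = 0.00242, edgeR). Genes of the Akr1c cluster are close copies of each other, so that reads could be split among them, and several others of the cluster were not analysed here. Akr7a5, which reduces aldehydes such as succinic semialdehyde, had 365, 368, 392 and 686 CPM in controls and 51, 55.5, 198 and 186 CPM after cisplatin (log2 fold change -1.89, SE 0.48, adjusted p = 0.00876, edgeR). Its log2 fold change was -1.23 without cisplatin 1 and 3, which were the lowest libraries.

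The aldose reductase cluster of chromosome 6 held 1 member that rose and 2 that were not called. Akr1b8 (chr6:34354119-34368463, plus strand), an aldose reductase-like enzyme of lipid aldehydes, had 3.98, 2.95, 3.64 and 4.25 CPM in controls and 122, 146, 225 and 216 CPM after cisplatin. Every treated kidney was far above every control (log2 fold change 5.58, SE 0.27, adjusted p = 1.12e-06, edgeR), and the mean rose 47.8-fold. Per kb of transcript it went from 2.47 to 118 CPM, from place 41 of the 58 tested members to place 4. Akr1b3, aldose reductase itself, which makes sorbitol, had 109, 72.4, 95.2 and 117 CPM and 92.8, 145, 118 and 86.5 CPM, overlapping (log2 fold change 0.17, SE 0.21, adjusted p = 0.542, edgeR). Akr1b7 was at 3.19 to 4.15 CPM in controls and at 1.0, 1.43, 4.25 and 8.41 CPM in cisplatin 1, 3, 4 and 6, so that cisplatin 1 and 3 were below the controls and 4 and 6 above.

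All 3 Cbr members were tested. Cbr3 (chr16:93683215-93690990, plus strand), a carbonyl reductase of quinones, had 1.33, 1.04, 1.14 and 1.81 CPM in controls and 17.5, 18.3, 48.2 and 62.3 CPM after cisplatin, without overlap (log2 fold change 4.77, SE 0.50, adjusted p = 6.27e-05, edgeR). Cisplatin 4 and 6 were the highest, and without cisplatin 1 and 3 the log2 fold change was 5.38. Cbr2 had 2.57, 3.03, 3.34 and 2.67 CPM and 8.78, 10.8, 14.2 and 1.98 CPM, with cisplatin 6 below the controls (log2 fold change 1.62, SE 0.49, adjusted p = 0.0214, edgeR). The call of Cbr2 was lost without control 1, control 2 or cisplatin 4 and without cisplatin 1 and 3 together (adjusted p = 0.0576, 0.050, 0.0579 and 0.0711, edgeR). Cbr4, which acts in mitochondrial fatty acid synthesis, went from 36.6 to 47.8 to 18.4 to 27 CPM, without overlap but with a log2 fold change of -0.79.

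Of the 6 hydroxysteroid dehydrogenases tested, 2 were lower and 0 higher, against 15.7% and 19.2% of all genes. Hsd3b2 (chr3:98709255-98724543, minus strand), which makes 3-keto steroids from their precursors, had 433, 424, 473 and 422 CPM in controls and 2.5, 1.87, 5.49 and 6.82 CPM after cisplatin. Controls were close together, and the treated kidneys kept 0.952% of their mean (log2 fold change -6.74, SE 0.43, adjusted p = 3.82e-06, edgeR), with -6.15 without cisplatin 1 and 3. Exons of Zfp697 overlap it on the opposite strand. Adrenal markers, 6 of which had values, summed to at most 0.182 CPM in every library, with Th at 0. Hsd17b11 (chr5:103989762-104021919, minus strand), a lipid droplet enzyme, had 836, 465, 781 and 874 CPM and 88.1, 103, 107 and 123 CPM (log2 fold change -2.81, SE 0.23, adjusted p = 1.71e-05, edgeR), without overlap.

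The other 4 Hsd members tested were not called. Hsd11b2 (chr8:105518755-105523988, plus strand), which inactivates corticosterone in the collecting duct, had 224, 200.1, 279.6 and 347 CPM in controls and 272, 217, 103 and 65.3 CPM after cisplatin. Cisplatin 1 and 3 lay among the controls and cisplatin 4 and 6 below them (log2 fold change -0.67, SE 0.41, adjusted p = 0.194, edgeR), so that the log2 fold change was 0.0055 within the first set and -1.62 (adjusted p = 0.00197, edgeR) without cisplatin 1 and 3. Hsd17b2, chosen after its values were known, had 27.2, 31.9, 25.8 and 46.9 CPM in controls and 1.68, 1.87, 16.5 and 19.1 CPM after cisplatin. Cisplatin 1 and 3 were the lowest, the groups did not overlap, and edgeR gave an adjusted p of 0.0672 for a log2 fold change of -1.77, which became -3.00 (adjusted p = 0.000507) with the library set as a covariate. Without cisplatin 1 and 3 the log2 fold change of Hsd17b2 was -0.88 (adjusted p = 0.0220, edgeR) and below the size required for a call.

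The remaining 23 members did not pass the expression filter. Of these, 21 had at most 5 counts in any library, and 8 of these had 0 in all. All 7 Sult2a members on chromosome 7 were among the 21, and Sult2a4, Sult2a7 and Sult2a8 among the 8. Sult2a3 had 10 values and was not used. The other 2 were Adh6a and Sult1e1, the estrogen sulfotransferase. Sult1e1, chosen after its values were known, had 1, 0, 0 and 0 counts in the controls and 9, 5, 52 and 48 in the cisplatin libraries. Per TMM-adjusted library size the ratio of cisplatin over control was 85.3 (exact 95% interval 15.0 to 3400, counting error only). Cisplatin 4 and 6 held most of the counts.

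Within the cisplatin group the members that fell did not fall equally in all libraries. Of the 24 called lower with at least 10 counts in each cisplatin library, 17 (70.8%) had both cisplatin 4 and cisplatin 6 above cisplatin 1 and 3, whereas this held for 38.1% of all such genes tested and 34.8% of those called lower. The opposite order was found in 1, Ugt2b34. The median ratio of the mean of cisplatin 4 and 6 to that of 1 and 3 was 1.80 for these members, 0.97 for all genes called lower and 1.01 for all genes. No test was made, since the libraries of the sets were grouped from the data.

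**Figure D5:**
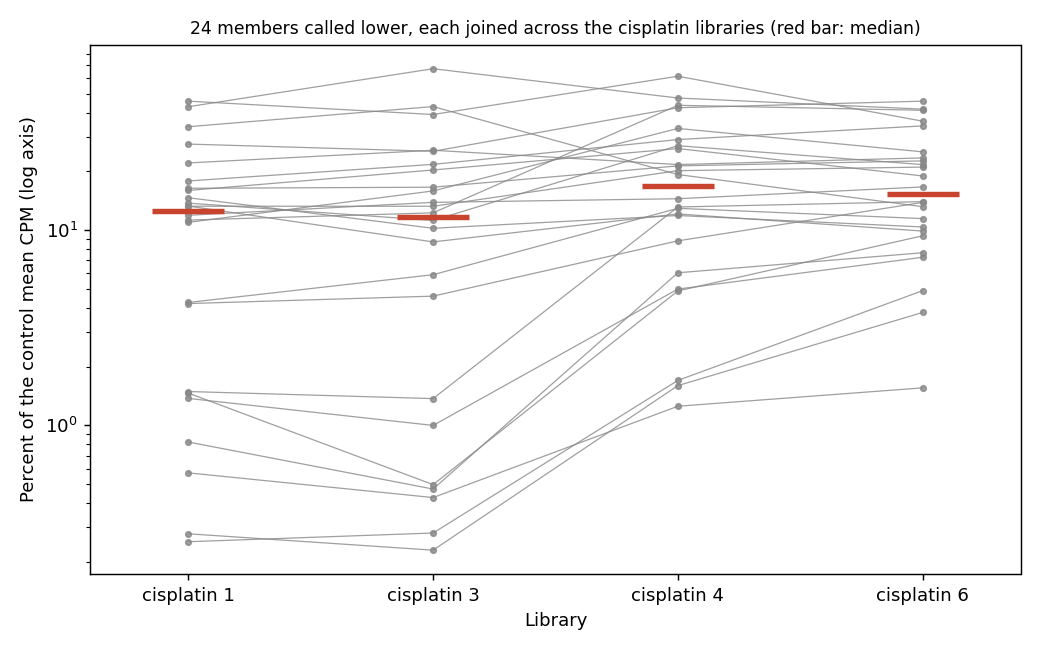
Percent of the control mean CPM (log axis) left in each cisplatin library for 24 members called lower, each joined by a line, with red bars at the medians of 12.6, 11.7, 16.9 and 15.3%. The members with the least transcript left, below 2% in cisplatin 1 and 3, all rise towards cisplatin 4 and 6.

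Markers of the proximal tubule moved with these members. Over all genes tested 15.7% were called lower and 19.2% higher, and all 13 of these markers were called lower. Their sum was 60165 to 75342 CPM in controls and 1294 to 14004 CPM after cisplatin, with none at 0. Kap, an androgen-dependent gene of this segment, had 32106, 29704, 32256 and 35066 CPM in controls and 544, 229, 6220.4 and 11022 CPM in cisplatin 1, 3, 4 and 6. Of 11 sex-linked and androgen-dependent kidney genes tested, 9 were lower and 0 higher, and Cyp2e1 showed the same order within the cisplatin group, at 6.41, 3.9, 99.1 and 313 CPM. The sums were 1590 to 1835 CPM in controls and 17631 to 39068 CPM after cisplatin for 11 tubule injury genes, of which 10 were higher. Of 5 leukocyte markers 3 were higher and 1 lower, with sums of 55.2 to 99.5 and 32.9 to 99.2 CPM, and of 4 liver markers 2 were lower and 1 higher, with sums of 13 to 21.2 and 41.2 to 99.6 CPM. Of 4 loop and distal markers 3 were lower, of 4 collecting duct markers, Hsd11b2 among them, 1 was lower and 1 higher, the 1 adipocyte marker tested was higher, and none of 2 podocyte and 2 endothelial markers was called. The part of these differences in the results for the members was not tested.

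Genes that supply or remove what these enzymes use were lower in part. Of 12 tested, 6 were lower and 1 higher, against 15.7% and 19.2% of all genes. Papss2, which makes the sulfate donor of the sulfotransferases, fell from 594 to 789.7 to 96.1 to 123 CPM (log2 fold change -2.76, SE 0.17, adjusted p = 3.13e-06, edgeR), and Ugp2, which makes UDP-glucose, from 267 to 282 to 93.9 to 116 CPM (log2 fold change -1.39, SE 0.13, adjusted p = 3.31e-05, edgeR). Ugdh, which oxidises UDP-glucose to the glucuronyl donor of the Ugt enzymes, had 124, 178, 121 and 193 CPM in controls and 147, 155, 304 and 355 CPM after cisplatin, overlapping, and was not called (log2 fold change 0.64, SE 0.31, adjusted p = 0.117, edgeR). Among sources of NADPH, Me1 and Idh1 were lower (-2.73 and -1.87) and G6pdx was higher, from 63.3 to 74.7 to 125 to 214 CPM (log2 fold change 1.35, SE 0.20, adjusted p = 0.000449, edgeR).

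Other enzymes of non-P450 metabolism were mostly lower. Of 27 tested, 15 were lower and 3 higher, against 15.7% and 19.2% of all genes. Acsm2 and Acsm3, which activate carboxylic acids for amino acid conjugation, had log2 fold changes of -4.29 and -5.35, the indolethylamine methyltransferase Inmt -4.71, the D-amino acid oxidase Dao -4.37 and the epoxide hydrolase Ephx2 -2.58. Xanthine dehydrogenase Xdh, with 45.2 to 57 CPM in controls, rose to 146 to 185 CPM (log2 fold change 1.68, SE 0.15, adjusted p = 2.35e-05, edgeR), and the methyltransferase Nnmt had a log2 fold change of 2.75. Por, the electron donor of the P450 enzymes, overlapped between groups and was not called (log2 fold change -0.40, SE 0.28, adjusted p = 0.263, edgeR).

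Transcription factors known to act on such genes were also read. Of 18 tested, 6 were lower and 4 higher, against 15.7% and 19.2% of all genes. Hnf4a, a regulator of proximal tubule and liver genes, had 1371, 1201, 1407 and 1932 CPM in controls and 85.3, 128, 253 and 187 CPM after cisplatin (log2 fold change -3.18, SE 0.35, adjusted p = 7.96e-05, edgeR). Esrrg and Vdr were lower with log2 fold changes of -2.27 and -1.47. Nfe2l2, which encodes NRF2, the activator of antioxidant response elements, rose from 174 to 264 to 451 to 598 CPM (log2 fold change 1.17, SE 0.18, adjusted p = 0.000579, edgeR). Its small Maf partner Mafk rose from 51.5 to 65.5 to 162 to 623 CPM (log2 fold change 2.73, SE 0.43, adjusted p = 0.000626, edgeR), with cisplatin 4 and 6 the highest.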

How the data were processed

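Kidney RNA of 4 control and 4 cisplatin-treated mice was sequenced. Reads were aligned by the authors with HISAT2 to GRCm38 (the submitters' processing notes also name fastp), and raw counts per gene were deposited. The counting tool, annotation release and strand setting are not given in the sources used here. The library kit in the labels differs from that in the study's methods. The deposited file lists 53715 genes, of which 35880 had 8 values and were used. The others had 10, and the 2 unnamed extra columns were used in no step.

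The analysis was done with edgeR 4.0.16 under R 4.3.3 (default expression filter, TMM, quasi-likelihood test, Benjamini-Hochberg adjustment over 9141 genes), with the thresholds of the study, which used DESeq2. The procedure was tested on simulated counts. Totals cover the genes used and not the whole library, and intervals cover counting error only. Gene positions are those of the table, and 80 of 81 members had the same start, end and strand in GENCODE M21. Promoter windows came from RefSeq for GRCm38.p6.

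The members and gene lists were chosen with earlier results of these data known. Named were, in each family and direction, up to 3 called members of at least 1 mean CPM and no overlap with the largest change, every tested member of at least 50 CPM in controls, and every member called higher. Other members are named in small counts or because of their values, as stated there. Alternatives were DESeq2 1.42.0, other normalizations and filters, a test that the change exceeds 1 on the log2 scale, a fit lacking the 10 most abundant genes, a replicate block and each library left out. The library set as a covariate, the first set alone and the fit without the 2 libraries lacking Y-linked counts were chosen after seeing the data. Matching pseudogenes and an antisense gene (9 in all) were left out. Protein sequences were not used here, and a few tested genes are not reported here.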

Additional observations from a re-analysis of the deposited data

Results flagged for a closer look

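In groups of 4, a library whose gap to the others exceeds Dixon's 95% critical share of the group's range was marked. Of 106 groups of member or family values examined, 7 had such a library, where chance marks about 1 in 20. In each it was control 5, as the highest of the controls. Akr7a5 had 686 CPM in control 5 against 365 to 392 CPM in the other controls, Aldh1l1 1239.9 against 649 to 701, Aldh2 1952 against 1032 to 1049.9, and Aldh9a1 1100.4 against 734 to 786. The Akr total was 7033 CPM against 4743 to 4956, the Aldh total 8327 against 6050 to 6273, and the Cbr total 52.3 against 40.5 to 42.4. Control 5 is the only control of the second library set, so its own deviation and that of the set cannot be told apart.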

How the results depend on the processing

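Between 23 and 31 members were called lower under every alternative, against 29. The number called higher was 7 in the test against a log2 fold change of 1, since that test asks for more than the threshold, and 8 to 15 otherwise, against 12. Total library size alone shifted the median of all genes by 0.57 and called 26 members lower and 15 higher. The log2 ratio of the summed members, -2.18, became -1.63 by total library size, -2.46 in the first set alone and -1.91 without cisplatin 1 and 3. With each library left out, 28 to 29 members were lower and 10 to 12 higher. DESeq2 called 30 lower and 12 higher. Akr1b3 ranged from -0.0020 without cisplatin replicate 3 to 0.27 and Hsd11b2 turned to 0.0055 in the first set alone; neither was called. With the replicate block 30 members were lower and 13 higher, of which 27 and 11 were also called without it. Only numbers 1 and 3 occur in both groups, so the blocked difference rests on control 1 and 3 and cisplatin 1 and 3. These are the cisplatin libraries that lack Y-linked counts, and this fit is no check on all 8 libraries. The deviations of the libraries that share number 1 or 3 correlated with r = 0.25 and 0.28. Differently numbered pairs of the same set gave 0.15 to 0.51, so so few pairs could not show whether libraries of the same number were paired. Without cisplatin 1 and 3, 31 were lower and 12 higher, 28 and 10 of them shared. The cause of these differences was not tested. Differences in members under about 1 CPM are limited by depth.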
